A study of Mus musculus with 2 samples.

Results

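Cxcl13-expressing stromal cells were the colonic cells that combined transcripts of the B cell-attracting chemokine Cxcl13 with fibrillar collagen transcripts. A cell was counted among them when it held at least 3 Cxcl13 unique molecular identifiers (UMIs, each standing for 1 captured transcript) and at least 10 UMIs of Col1a1, Col1a2 and Col3a1 together. Cells entered with at least 500 detected genes and at most 10% mitochondrial UMIs. Of 20007 barcodes, 19463 passed these limits, and 1618 met the rule. The members were chosen by their Cxcl13 and collagen UMIs, so the levels of these genes are given as descriptions only.

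The cells came from whole colons of mice aged 6 months, sorted as live Podoplanin+ cells that lacked CD45, CD31 and EpCAM and excluded 7AAD, and were profiled with the 5' chemistry of 10x Genomics. Both genotypes carried floxed alleles of Il10ra, which encodes the ligand-binding chain of the interleukin-10 receptor. The control mice (Il10ra ff) had no Cre, and the Cre mice (Il10ra ff; Pdgfra-cre) expressed Cre recombinase from Pdgfra regulatory sequence, which is active in most fibroblasts. The labels list 2 mice of each genotype and 1 library of each, and do not say how the mice were combined. With 1 library per genotype there was no replicate check on any difference, no test was made, and all intervals cover counting error only at the 95% level.

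The kept cells of the control library held 76331300 UMIs and those of the Cre library 66571430, with medians of 6633 and 7457 UMIs per cell. The libraries shared 109 kept barcodes, 1 of them Cxcl13-expressing in both. The median mitochondrial share of the members was 1.30% in control cells and 1.40% in the Cre library.

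Cxcl13 is the ligand of CXCR5, the receptor that brings B cells and follicular helper T cells into follicles. In lymph nodes, Peyer's patches and the isolated lymphoid follicles of the gut it is made by follicular dendritic cells and by other follicular stroma, downstream of lymphotoxin and tumour necrosis factor receptors and non-canonical NF-kB. Stromal cells of the T cell zone make Ccl19 and Ccl21, marginal reticular cells carry Madcam1, and several stromal types supply the survival factors BAFF (Tnfsf13b) and Il7.

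The start sites of 3 chemokine genes are shown because their transcripts set these cells apart from other fibroblasts or mark lymphoid stroma. Each run is the 250 bases before the RefSeq start in GRCm38.p6, an older build than the GRCm39 of the counts, written along the gene's own strand. Capitals mark matches, on either strand, to TATAAA (the TATA box), to AGGTCA (a half-site of nuclear receptors), to GGGNNTTCC (a form of the kappaB site) and to GAAANNGAA (part of an interferon response element).
Cxcl13, chr5:95956689-95956938, + strand: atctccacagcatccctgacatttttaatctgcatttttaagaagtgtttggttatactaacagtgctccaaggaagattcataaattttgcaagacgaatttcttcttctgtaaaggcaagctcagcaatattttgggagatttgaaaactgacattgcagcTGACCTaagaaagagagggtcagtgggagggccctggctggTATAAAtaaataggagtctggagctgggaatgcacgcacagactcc
Cxcl12, chr6:117168285-117168534, + strand: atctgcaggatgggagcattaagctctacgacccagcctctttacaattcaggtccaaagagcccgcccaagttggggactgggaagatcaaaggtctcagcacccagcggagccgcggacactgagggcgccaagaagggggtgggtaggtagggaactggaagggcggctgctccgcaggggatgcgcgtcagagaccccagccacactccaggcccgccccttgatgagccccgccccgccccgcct
Ccl19, chr4:42756366-42756615, - strand: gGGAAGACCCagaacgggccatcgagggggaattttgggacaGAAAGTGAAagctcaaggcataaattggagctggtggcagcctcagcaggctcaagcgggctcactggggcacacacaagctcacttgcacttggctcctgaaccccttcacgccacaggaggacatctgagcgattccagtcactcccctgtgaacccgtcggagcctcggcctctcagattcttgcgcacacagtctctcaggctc
The Cxcl13 window held a TATA box that began 46 bases before the start and, on the reverse strand, the nuclear receptor half-site 87 bases before it. The Cxcl12 window held none of the 4 patterns. In the Ccl19 window the kappaB form began 249 bases and the interferon element 208 bases before the start, and the matches do not overlap. Among 32851 RefSeq promoter windows of this length, 12.4% held the TATA box, 14.0% the half-site, 4.98% the kappaB form and 7.13% the interferon element. A match is a run of letters and no evidence of binding, and the absence of one says nothing of the factor.

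The targeted gene was read first. Il10ra had 2 UMIs among the 11050 kept control cells and 10 among the 8413 kept Cre cells. None lay in a Cxcl13-expressing cell of either library, where a count of 0 allows up to 0.622 and 0.306 CPM, the UMIs of a gene scaled to a fixed library total. Il10ra was therefore at the limit of detection in both genotypes and does not check the deletion in these cells. Il10rb, the second receptor chain, was present in them at 40.2 CPM in control cells and 64.6 CPM in the Cre library.

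Of the 4 markers attached to the name of these cells, only Tnfsf13b was broadly detected beside the Cxcl13 of the rule. Madcam1 was at 0 UMIs in the Cxcl13-expressing cells of both libraries, with an allowance of 0.622 and 0.306 CPM. Ccl19 was found in 12 of 588 such control cells and 42 of 1030 such Cre cells. The pan-fibroblast transcripts Dcn (9269 and 9345 CPM), Pdgfra (468 and 371 CPM) and Pdpn (264 and 323 CPM) were abundant. The cells are therefore called by their rule, fibroblasts with Cxcl13 transcripts, and no name of a lymphoid stroma type is given to them. Madcam1 was found in only 2 of 7730 control and 3 of 4106 Cre cells without Cxcl13. Its absence therefore does not separate the members from marginal reticular cells.

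Cxcl13 was found in more collagen-positive cells of the Cre library, and with more UMIs per cell. In the control library 588 of 9022 collagen-positive cells qualified (6.52%, exact binomial interval 6.02 to 7.05), and in the Cre library 1030 of 5879 did (17.5%, 16.6 to 18.5). A further 704 control cells (7.80%) and 743 Cre cells (12.6%) held 1 or 2 Cxcl13 UMIs, and 7730 and 4106 held none. The median of a qualifying cell was 6 Cxcl13 UMIs in the control (interquartile range 4 to 11, maximum 117) and 10 in the Cre library (5 to 23, maximum 244). Cells with at least 10 UMIs made up 1.92% of control and 8.78% of Cre collagen-positive cells. Just inside and outside the limit, 142 control cells had 3 UMIs and 207 had 2, against 129 and 229 in the Cre library.

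Depth was close between the sets compared within a library. Cxcl13-expressing and Cxcl13-zero collagen-positive cells had medians of 7368.5 and 7378 UMIs in control cells and 8660.5 and 8788.5 in the Cre library. When each cell was thinned to 2000 UMIs, which left out 107 control and 29 Cre collagen-positive cells that were shallower, 8.07% of control and 19.3% of Cre cells kept at least 1 Cxcl13 UMI, against 14.3% and 30.2% before thinning. Cells that should lack the gene served as the background. No glia-like cell had a Cxcl13 UMI, of 30 in the control (which allows up to 10% of cells) and 59 in the Cre library (up to 5.08%), at median depths of 5234.5 and 5654 UMIs. Of the smooth muscle-like cells, 0 of 131 in the control (up to 2.29%) and 3 of 71 in the Cre library (4.23%) had one, at medians of 5590 and 5618 UMIs.

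**Figure D1:**
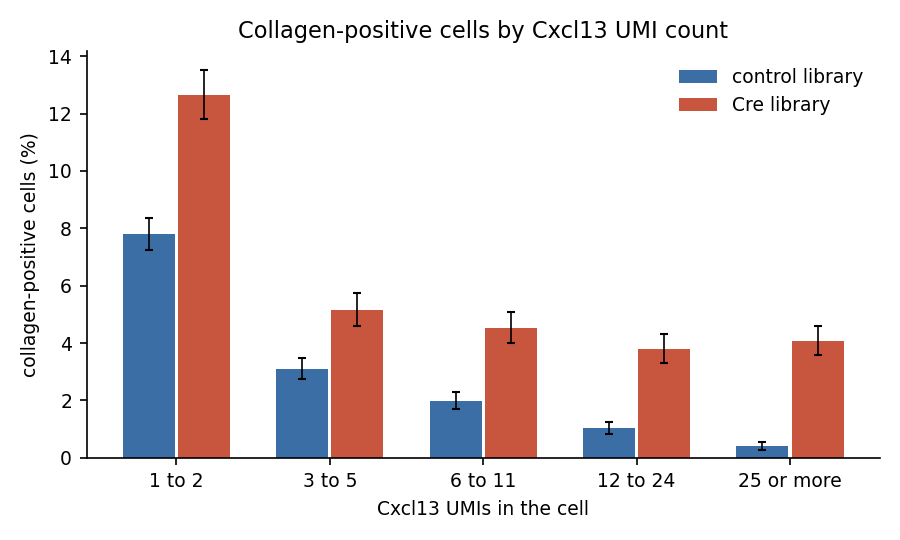
Cxcl13 UMIs per collagen-positive cell in each library: each bar is the percentage of a library's collagen-positive cells in a range of Cxcl13 UMIs, with exact binomial intervals. At 25 UMIs or more there were 37 control cells and 239 Cre cells.

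Among lymphoid-organising transcripts, those of Cxcl12 and Tnfsf13b were more than 2-fold higher with Cxcl13 in the Cre library and less than 2-fold higher in the control. Cxcl12 encodes the CXCR4 ligand that retains B cells and plasma cells. Its level in Cxcl13-expressing and Cxcl13-zero cells was 1709.9 and 1072 CPM in the control library, a ratio of 1.60 (1.56 to 1.63), and 2650.1 and 1009 CPM in the Cre library, with a ratio of 2.63 (2.59 to 2.67). Tnfsf13b was at 224 and 141 CPM in the control, a ratio of 1.59 (1.49 to 1.69), and at 299 and 101 CPM in the Cre library, with a ratio of 2.95 (2.81 to 3.09). For both genes the expressing cells were the higher set in each library, and the Cxcl13-zero levels differed little between libraries for Cxcl12 and were lower in the Cre library for Tnfsf13b.

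Shares of cells gave the same order. At 2000 UMIs per cell, Tnfsf13b was detected in 31.6% of expressing and 20.9% of zero cells of the control, and in 41.4% and 15.5% in the Cre library; before thinning the shares were 68.4%, 45.8%, 82.2% and 38.8%. Smooth muscle-like cells, thinned alike, gave 3.82% and 8.45%. Cxcl12 was detected in 93.2% and 65.8% of control cells and in 96.7% and 63.4% of Cre cells at 2000 UMIs (99.0%, 82.0%, 100% and 87.1% before), against 14.5% and 33.8% of smooth muscle-like cells. Thinning left out 2 expressing and 102 zero cells of the control and 1 and 24 of the Cre library.

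Ccl19 was rare but unevenly placed. It had 3.11 CPM in expressing and 0.434 CPM in zero cells of the control, a ratio of 7.17 (3.53 to 14.1), and 6.43 and 1.96 CPM in the Cre library, with a ratio of 3.28 (2.31 to 4.65). At these levels it stayed under the mean of 10 CPM that was required of a gene before it was counted as measured.

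A gene was called when its log2 ratio, with 1 CPM added to each level, reached 1 in either direction. Of the 20 lymphoid-organising genes other than Cxcl13, 14 were measured. None was called in the control library, where 0.506% of all 9094 measured genes were called higher and 1.18% lower. In the Cre library Cxcl12 and Tnfsf13b were called higher and Il33 lower, where 1.91% and 2.05% of 9088 genes were called. The median log2 ratio of the list was 0.33 in control cells and 0.39 in the Cre library, with 11 and 12 of the 14 above 0, against medians of 0.01 and 0.05 over all genes.

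Other members of the list stayed under 2-fold, and in the control library Ch25h and Cyp7b1 had ratios slightly above those of Cxcl12 and Tnfsf13b. Vcam1, an adhesion molecule for lymphocytes, was at 137 and 119 CPM in expressing and zero cells of the control and at 274 and 144 CPM in the Cre library. Ch25h and Cyp7b1, which act in the synthesis of the B cell guidance cue 7α,25-dihydroxycholesterol, differed by about equal amounts in each library. Ch25h had ratios of 1.64 (1.39 to 1.93) and 1.59 (1.36 to 1.86), and Cyp7b1 of 1.69 (1.40 to 2.03) and 1.68 (1.5 to 1.89). Enpp2, which makes lysophosphatidic acid, had ratios of 1.12 (1.04 to 1.21) and 1.72 (1.62 to 1.82).

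The cytokines of the list went in several directions. The alarmin Il33 was lower in expressing cells, at 20.9 against 33.6 CPM in control cells and 38.4 against 93.8 CPM in the Cre library. Il6 was at 90.6 against 64.0 CPM in control cells and at 111 against 126 CPM in the Cre library. Il7 stood at 11.4 against 17.8 CPM and at 19.3 against 17.7 CPM. Neither Il6 nor Il7 kept a direction between the libraries.

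**Figure D2:**
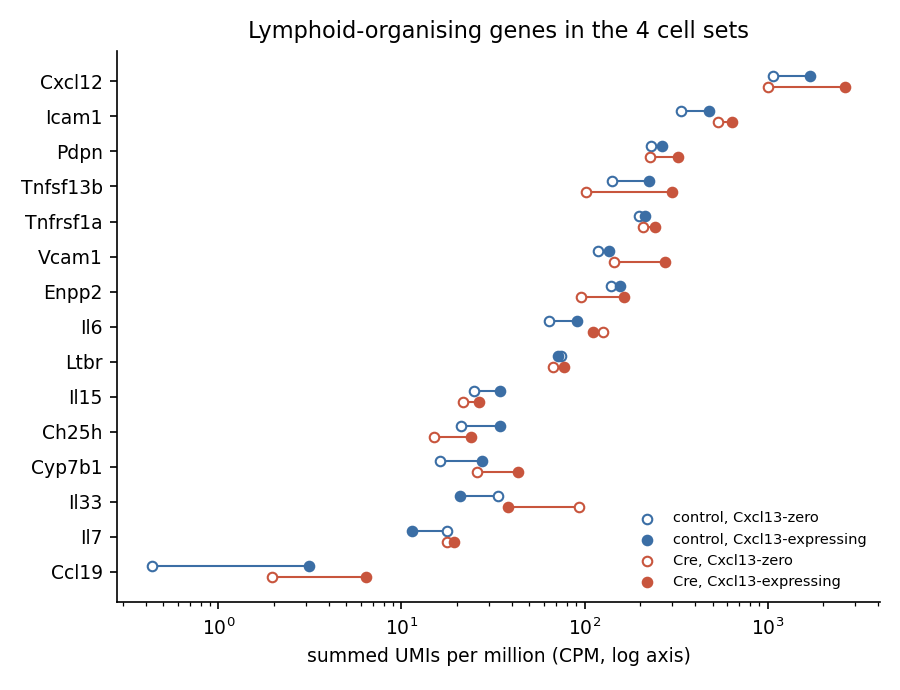
Level in CPM (log axis) of lymphoid-organising genes in each library, with a line from the Cxcl13-zero cells (open circle) to the Cxcl13-expressing cells (filled circle). Cxcl12 reached 2650.1 CPM in the expressing cells of the Cre library, and Ccl19 stayed under 10 CPM in every set.

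Genes of lymphotoxin and non-canonical NF-kB signalling showed no 2-fold difference. Of 19 such genes 18 were measured, and 0 were called in either library, with median log2 ratios of 0.06 and 0.17. The lymphotoxin β receptor Ltbr was at 71.4 and 74.2 CPM in control cells and at 77.1 and 67.6 CPM in the Cre library. Relb, Nfkb2 and Map3k14 (NIK) had ratios between 0.928 and 1.14 in the 2 libraries. Nfkb1 was at 128 against 177 CPM and at 164 against 263 CPM, lower in the expressing cells of each library.

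Of the transcripts typical of follicular dendritic cells, the defining receptors were nearly absent. The complement receptor Cr2 had 1 UMI in control cells and 9 UMIs in the Cre expressing cells, and Fcer2a had 0 and 1. C4b was at 501 against 385 CPM in control cells and at 1559 against 875 CPM in the Cre library. Mfge8 had ratios of 1.16 (1.09 to 1.22) and 0.961 (0.917 to 1.01). Ackr3, a scavenging receptor for Cxcl12, was called lower in both libraries, at 166 against 395 CPM in control cells and 145 against 358 CPM in the Cre library. Clu was also called lower in the Cre library, at 11.2 against 41.6 CPM. Of 13 genes in this list 7 were measured, 1 was called lower in control cells and 2 in the Cre library, and the medians were 0.16 and -0.13.

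Some adventitial fibroblast markers were lower in the Cxcl13-expressing cells, and none was called higher. Pi16, which marks the adventitial cells around vessels, was at 83.4 CPM in expressing and 534 CPM in zero cells of the control, a ratio of 0.156 (0.141 to 0.172), and at 92.5 and 534 CPM in the Cre library, with a ratio of 0.173 (0.162 to 0.185). Ackr4, which scavenges Ccl19 and Ccl21, was at 5.81 against 49.1 CPM and at 22.5 against 135 CPM. Dpp4 was called lower as well in the Cre library, at 2.86 against 18.1 CPM. Grem1 went the other way in this list, with ratios of 1.89 (1.79 to 2.00) and 1.36 (1.32 to 1.41), under the fold of a call. Of 7 adventitial genes 6 were measured in control cells and 7 in the Cre library, and 2 and 3 of them were called lower and 0 higher. Ackr4 in the control and Dpp4 in the Cre library were under 10 CPM in expressing cells and passed the minimum through the zero cells. These counts are therefore a description only.

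Markers of a submucosal type of fibroblast were lower. Of the 8 genes, the 8 measured in the Cre library and the 5 measured in the control were called lower, with medians of -2.28 and -2.46. Most of them passed the minimum through the zero cells, so these counts are a description only. Sfrp4, a secreted Wnt antagonist, was at 7.88 against 50.7 CPM in control cells and at 34.0 against 189 CPM in the Cre library. The neuropeptide Y receptor Npy1r was at 4.56 against 30.1 CPM and at 48.7 against 104 CPM.

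Lamina propria markers were mixed in the control library and mostly higher in expressing cells of the Cre library. Frmpd4, a synaptic scaffold gene used as a marker of these fibroblasts, was at 248 against 107 CPM in the control, a ratio of 2.33 (2.19 to 2.48), and at 419 against 73.6 CPM in the Cre library, with a ratio of 5.69 (5.42 to 5.97). Edil3, an integrin ligand, was at 338 against 306 CPM in control cells and at 465 against 134 CPM in the Cre library. Adamdec1, a secreted metalloprotease, had ratios of 1.06 (1.03 to 1.09) and 1.61 (1.58 to 1.64). The fatty acid transporter Cd36 was called lower in the control, at 9.33 against 50.9 CPM, and passed the minimum through the zero cells. The list median was -0.12 over 7 genes in the control, with 1 called in each direction, and 1.29 over 5 genes in the Cre library, with 3 called higher and 0 lower.

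Markers of the fibroblasts beneath the epithelium were mostly on the higher side, with few calls, and the called genes differed between the libraries. All 8 genes were measured in control cells and all lay above 0, with a median of 0.62 and 1 call, and 7 were measured in the Cre library, with a median of 0.83 and 3 calls. The called gene of the control was Wnt5a, at 125 against 60.2 CPM, which was at 40.0 against 41.3 CPM in the Cre library; with at least 10 Cxcl13 UMIs its control log2 ratio was 0.27. At that limit the control median of the list was -0.01, with Bmp5 at -0.03, Bmp7 at -0.33 and Sox6 at -0.47, and the Cre median was 0.38, with Bmp3 at 0.43. The bone morphogenetic protein genes Bmp3, Bmp5 and Bmp7 were called in the Cre library, with ratios of 2.20 (1.91 to 2.53), 2.41 (2.28 to 2.56) and 2.94 (2.61 to 3.31), and stood at 1.69, 1.56 and 1.47 in the control. The tissue factor gene F3 had ratios of 1.70 (1.60 to 1.80) in control cells and 0.756 (0.708 to 0.807) in the Cre library.

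Sorting each cell by its highest list, after thinning to 2000 UMIs, showed the mix behind these ratios. The UMIs of a list were first divided by its mean over the collagen-positive cells of both libraries. Cells in which no list gave at least 3 UMIs were counted as cells of no list. In the control, 36.2% of expressing and 29.1% of zero cells went to the lamina propria list, 24.6% and 16.0% to the subepithelial list, and 16.9% and 32.7% to the adventitial list. In the Cre library the shares were 50.6% and 18.5%, 10.6% and 7.94%, and 27.0% and 52.9%. Turned round, 212 of 2641 lamina propria cells of the control expressed Cxcl13 by the rule (8.03%) against 521 of 1522 in the Cre library (34.2%). In adventitial cells the shares were 3.61% and 10.3%, in subepithelial cells 9.14% and 19.8%, and in cells of no list 6.69% and 11.3%. The share was above that of the control in each of the 4 classes of the Cre library. These classes use markers that differ between the libraries themselves, so a class need not hold the same cells in both.

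Within classes, Cxcl12 and Tnfsf13b differed most among adventitial cells and those of no list. This breakdown was made after the pooled ratios had been seen. Tnfsf13b in adventitial cells was at 294 CPM with Cxcl13 and 93.9 CPM without it in the control, and at 299 and 68.0 CPM in the Cre library. In lamina propria cells it was at 273 and 214 CPM, and at 341 and 291 CPM, so cells without Cxcl13 were closer there to cells with it. Cxcl12 in adventitial cells had log2 ratios of 1.48 and 1.93, against 0.46 and 0.36 in lamina propria cells. In subepithelial cells of the control Cxcl12 went the other way, at 1743 CPM with Cxcl13 and 2019 CPM without it, a ratio of 0.863 (0.827 to 0.901), and in those of the Cre library the ratio was 1.27 (1.21 to 1.33).

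The Cre differences were smaller at a matched class mix. When the zero cells were weighted to the class mix of the expressing cells, Cxcl12 had log2 ratios of 0.45 (control) and 0.84 (Cre), and Tnfsf13b of 0.58 and 0.79, so both kept their direction and lost their Cre call. Il33 (-0.61), Ackr3 (-0.95), Cxcl5 (0.72), Ifitm1 (0.88) and H2-Q7 (0.56) lost theirs in the Cre library in the same way. Frmpd4 stayed called at 1.11 and 1.37, and Pi16 at -1.82 and -1.72, although both genes are themselves among those that define the classes. Edil3 and Bmp5, which do so too, went to 0.49 and 0.42 in the Cre library, and the lamina propria list there from a median of 1.29 to -0.04. Of the genes named in the text, 30 of 48 Cre calls and 32 of 37 control calls remained.

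Across all genes, the 2 libraries gave related but unequal lists. In the control 46 genes were called higher and 107 lower, and in the Cre library 174 and 186. Among the 8786 genes measured in both, 21 were called higher in both (0.239%, Cxcl13 included). That is 67.7% of the 31 control calls and 13.9% of the 151 Cre calls among those genes. A further 64 were called lower in both (0.728%), which is 70.3% of the 91 control calls and 41.3% of the 155 Cre calls among them. Without Cxcl13, the log2 ratios of the libraries had a Pearson r of 0.62 across 8785 genes; genes are not independent replicates, and no cell is shared by the comparisons.

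The genes highest in both libraries were Col28a1, Amph, Kcnb2, Asb4, Cxcl14, Csmd3, Procr, Serpina3n, Chl1, Ptger1, Frmpd4 and Nlgn1. Col28a1, Amph, Asb4 and Csmd3 were under 10 CPM in the zero cells of each library and passed the minimum through the expressing cells. So did Kcnb2 in the Cre library and Chl1 in the control, and the rank of these genes is a description only. Col28a1, a minor collagen, had ratios of 5.15 (4.03 to 6.56) in the control library and 4.40 in the Cre library. Serpina3n, an acute-phase protease inhibitor, was at 637 against 267 CPM and at 2678 against 884 CPM. The chemokine gene Cxcl14 was at 262 against 104 CPM and at 194 against 69.7 CPM, and its log2 ratio in the control was 0.19 when at least 10 Cxcl13 UMIs were required. Procr, the protein C receptor gene, went at that limit from 1.33 to 0.52 in the control and from 1.26 to 0.65 in the Cre library. Several are genes of neurons or synapses by their best-known roles: Amph (ratios of 4.18 and 4.83), Csmd3 (2.68 and 10.1), the adhesion molecule Chl1 (2.55 and 4.27) and the neuroligin Nlgn1 (2.26 and 3.06). Without the collagen minimum the control log2 ratio of Chl1 went from 1.25 to 0.58, under the fold of a call. Glial transcripts did not go with them: the summed glia list was at 2.90 against 3.07 CPM in control cells and 5.51 against 8.40 CPM in the Cre library.

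Among the genes lowest in both were Ackr4, Pi16, Myoc, Sfrp4, Gas1, Ptn, Cilp, Pcolce2, Cmah, Ebf1 and Tac1. In the control, Ackr4, Myoc, Sfrp4, Ptn, Cmah and Tac1 were under 10 CPM in the expressing cells and passed the minimum through the zero cells. The same held for Cmah and Tac1 in the Cre library. The rank of these genes is a description only. Ebf1, a transcription factor of adventitial and fat-forming stroma as well as of B cells, was at 67.0 against 279 CPM in control cells and at 121 against 544 CPM in the Cre library. Pcolce2, which enhances collagen processing, had ratios of 0.234 (0.203 to 0.267) and 0.233 (0.216 to 0.250). The growth factor Ptn had ratios of 0.198 (0.127 to 0.296) in control cells and 0.125 (0.106 to 0.147) in the Cre library.

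**Figure D3:**
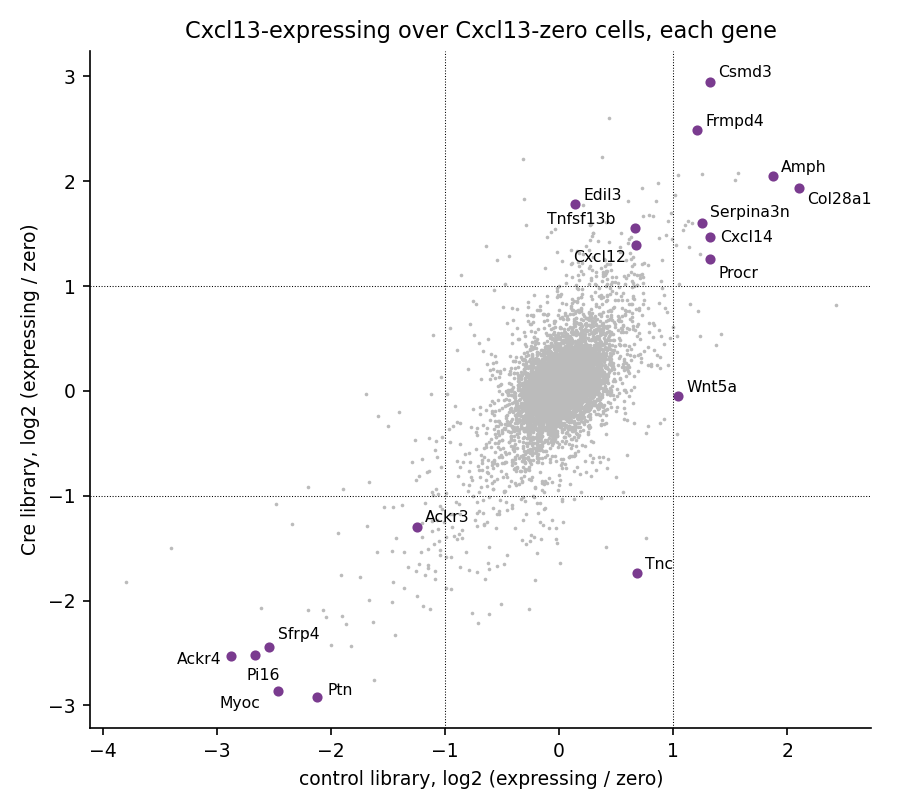
Log2 ratio of Cxcl13-expressing over Cxcl13-zero cells (1 CPM added), control library on the horizontal and Cre library on the vertical axis, 1 point per gene measured in both, Cxcl13 left out, with dotted lines at the 2-fold of a call. Frmpd4 lies at 1.21 and 2.49, Pi16 at -2.66 and -2.52, and Tnc at 0.68 and -1.74.

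Levels followed the number of Cxcl13 UMIs in a cell, and some genes followed it throughout while others peaked at low numbers. In cells with 0, 1 to 2, 3 to 5, 6 to 11, 12 to 24 and at least 25 Cxcl13 UMIs, Tnfsf13b was at 141, 155, 193, 231, 272 and 282 CPM in the control. In the Cre library it was at 101, 171, 253, 301, 306 and 341 CPM. Frmpd4 went from 107 to 485 CPM in control cells and from 73.6 to 532 CPM in the Cre library over the same ranges. Both genes were thus highest in the cells with most Cxcl13.

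Subepithelial genes peaked where Cxcl13 was low. Sox6, a transcription factor of these cells, was at 128, 323, 284, 156, 71.3 and 97.0 CPM in control cells and at 60.4, 189, 155, 147, 83.6 and 37.5 CPM in the Cre library. Bmp5 was highest at 3 to 5 UMIs in both libraries, at 441 CPM (control) and 219 CPM (Cre). Cxcl14 reached 374 CPM at 3 to 5 UMIs in control cells and 93.4 CPM at 12 to 24. Pi16 was highest at 0 and went from 534 CPM at 0 to 166 CPM at 1 to 2 UMIs in control cells and 408 CPM in the Cre library, and to 41.2 and 50.5 CPM at 25 or more. The highest range rests on 37 control cells, against 239 in the Cre library.

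**Figure D4:**
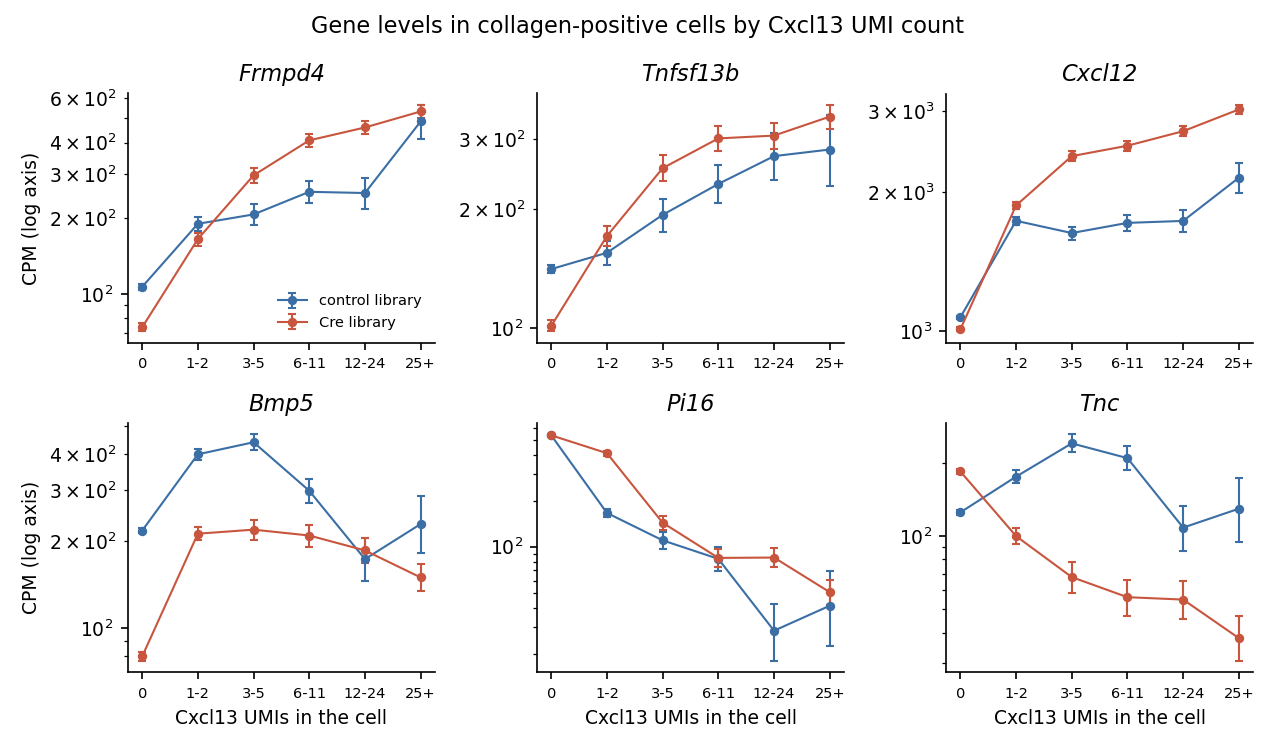
Level in CPM (log axes) of Frmpd4, Tnfsf13b, Cxcl12, Bmp5, Pi16 and Tnc by range of Cxcl13 UMIs per collagen-positive cell, in each library, with exact Poisson intervals. Frmpd4, Tnfsf13b and Cxcl12 are highest at 25 UMIs or more in both libraries, Bmp5 at 3 to 5 UMIs, and Pi16 at 0.

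Chemokine genes other than Cxcl13 split by class. Ccl2 and Ccl7, which attract monocytes, were lower in expressing cells, at 106 against 261 and 73.0 against 213 CPM in control cells and at 391 against 626 and 288 against 620.1 CPM in the Cre library. Cx3cl1, at 8.92 against 2.90 CPM and 15.6 against 6.22 CPM, was on the higher side in both. It was under the minimum of 10 CPM in the control, and passed it in the Cre library through the expressing cells. Cxcl5, a neutrophil attractant, was called higher in the Cre library only, at 87.4 against 33.5 CPM, and was at 4.15 against 3.29 CPM in the control; the difference between the libraries was not tested. The control call of Cxcl9 rests on 1 cell that held 97.2% of its UMIs. Of 21 genes in the list 13 were measured in the control, 2 of them called higher and 4 lower, and 15 in the Cre library, 4 higher and 3 lower. Over all measured genes 0.506% were called higher and 1.18% lower in the control, and 1.91% and 2.05% in the Cre library. The list also holds the scavenging receptor gene Ackr4, the lowest of its lower calls in each library (log2 ratios of -2.88 and -2.53). These counts are a description only.

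Matrix genes were mostly a little lower. Of 29, 1 was called lower in control cells and 4 in the Cre library, and 0 higher, with medians of -0.12 and -0.26. Fbn1, the microfibril gene fibrillin 1, was at 299 against 634 CPM and at 298 against 571 CPM. Tnc, which encodes tenascin C, went opposite ways: it was at 201 against 125 CPM in the control, a ratio of 1.61 (1.5 to 1.72), and at 54.5 against 184 CPM in the Cre library, with a ratio of 0.296 (0.271 to 0.323). By range of Cxcl13 UMIs, Tnc in the control was highest at 3 to 5 UMIs, at 240.3 CPM, and in the Cre library it was highest at 0 and lowest, at 37.9 CPM, at 25 or more. Col6a3 was called lower in the Cre library, at 119.7 against 356 CPM, and was at 217 against 298 CPM in the control.

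Interferon and antigen-presentation genes differed little with Cxcl13 within a library. Of the 40 type I interferon response genes 29 and 32 were measured, with 0 called in control cells and only Ifitm1 in the Cre library, and medians of 0.19 and 0.20. Ifitm1 was at 1643 against 892 CPM in control cells and at 2463 against 893 CPM in the Cre library. All 15 class I presentation genes measured in control cells and all 18 in the Cre library lay above 0, with medians of 0.28 and 0.52. H2-Q7 was the 1 call among them, at 414 against 199 CPM in the Cre library.

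Between the genotypes, interferon-response and antigen-presentation genes stood far apart in Cxcl13-expressing cells, and by similar amounts in Cxcl13-zero cells. The class I heavy chain H2-K1 was at 490.3 CPM in control and 2764 CPM in Cre expressing cells, and at 424 and 1879.7 CPM in zero cells. The chemokine Cxcl10 was at 117 and 584 CPM, and at 110.1 and 445 CPM. For each of these 2 genes both Cre levels lay above both control levels; the spread between mice is not known here.

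By lists, 16 of 31 measured type I interferon genes were called higher in Cre expressing cells, with a median of 1.01, and 15 of 32 in zero cells, with a median of 0.92. Of 9178 genes measured in expressing cells 1.96% were called higher and 1.22% lower, and of 9046 in zero cells 1.95% and 1.66%. Interferon-γ and guanylate-binding protein genes gave 16 of 19 and 15 of 18, with medians of 2.16 and 2.17. Class I presentation genes gave 13 of 18 in each, with medians of 1.97 and 1.78, and complement genes 5 of 9 and 5 of 10. None of these lists held a call in the lower direction. Some members passed the minimum through the Cre cells, such as H2-Q6 (3.73 and 329 CPM in control and Cre expressing cells) and H2-Q7 (9.54 and 414 CPM). These counts are therefore a description only. H2-Q6, H2-Q7, the Serpina3 genes and the guanylate-binding protein genes have close copies whose reads the counting could divide, so single values of these families are uncertain.

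For a smaller group of genes the genotype difference had another size or direction with Cxcl13 than without it. Edil3 was at 338 and 465 CPM in control and Cre expressing cells but at 306 and 134 CPM in zero cells. Tnfsf13b was at 224 and 299 CPM with Cxcl13 and at 141 and 101 CPM without, and Cxcl12 at 1709.9 and 2650.1 CPM with and at 1072 and 1009 CPM without. Vcam1 reached 137 and 274 CPM with and 119 and 144 CPM without, which is a ratio of 2.01 (1.84 to 2.19) with and 1.21 without; with 1 CPM added the first was just short of a call. Whether these differences exceed the spread between mice could not be tested.

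Genes lower in the Cre library included several subepithelial markers. Nrg1, which encodes the epithelial growth factor neuregulin 1, was at 145 and 24.4 CPM in control and Cre expressing cells and at 102 and 17.8 CPM in zero cells. Wnt5a was at 125 and 40.0 CPM with Cxcl13 and at 60.2 and 41.3 CPM without. Of the subepithelial list, 4 of 8 measured genes were called lower in expressing cells and 4 of 7 in zero cells, and of the lamina propria list 1 of 6 and 5 of 7. Cd36, at 50.9 and 1.91 CPM in control and Cre zero cells, passed the minimum there through the control cells. The counts are thus a description only.

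The 8 highest genes of this comparison were Saa3, H2-Q6, Serpina3f, H2-Q7, Hp, Ncam2, Serpina3m and Cxcl5, and several were read from few control UMIs. Each of them was under 10 CPM in control expressing cells and passed the minimum through the Cre cells. Their rank is therefore a description only. Saa3, an acute-phase serum amyloid, had 0 UMIs in control expressing cells and 214 CPM in the Cre library. This is at least 343-fold higher against the 3 counts that a count of 0 allows over the control set. Saa3 was found in 62 of 1030 Cre expressing cells, and 1 cell held 22.1% of its UMIs there. Serpina3f had a ratio of 137 (37.9 to 1138) on 2 control UMIs, and the adhesion gene Ncam2 of 66.6 (22.6 to 324) on 3. Ncam2 stood at 2.99 and 5.96 CPM in zero cells. Serpina3m was at 4.36 and 108 CPM in expressing and at 2.30 and 12.8 CPM in zero cells. The haptoglobin gene Hp was at 0.415 and 36.1 CPM, with 39.0% of its Cre UMIs in 1 cell.

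The 8 lowest were H3c2, Stmn2, Kctd8, Jchain, Rgs6, Cpe, Mt3 and Plau. All but Jchain and Plau were under 10 CPM in Cre expressing cells and passed the minimum through the control cells. The rank of those genes is a description only. For H3c2, Jchain and Cpe, 1 cell held 95.1%, 91.2% and 93.7% of the UMIs of the control expressing cells. The ratio of Cpe between genotypes was -0.04 on the log2 scale without called doublets, and that of Jchain -0.09 without cells that held transcripts of other types. The others were less concentrated in the control. Still, 1 cell held 33.3% of the Mt3 UMIs of the control expressing cells, and 1 cell 35.3% of the Plau UMIs of the Cre expressing cells. Stmn2, a regulator of microtubules, was at 139 and 9.999 CPM in control and Cre expressing cells and at 333 and 35.1 CPM in zero cells. The plasminogen activator Plau was at 102 and 11.8 CPM, and the signalling regulator Rgs6 at 44.4 and 3.57 CPM.

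**Figure D5:**
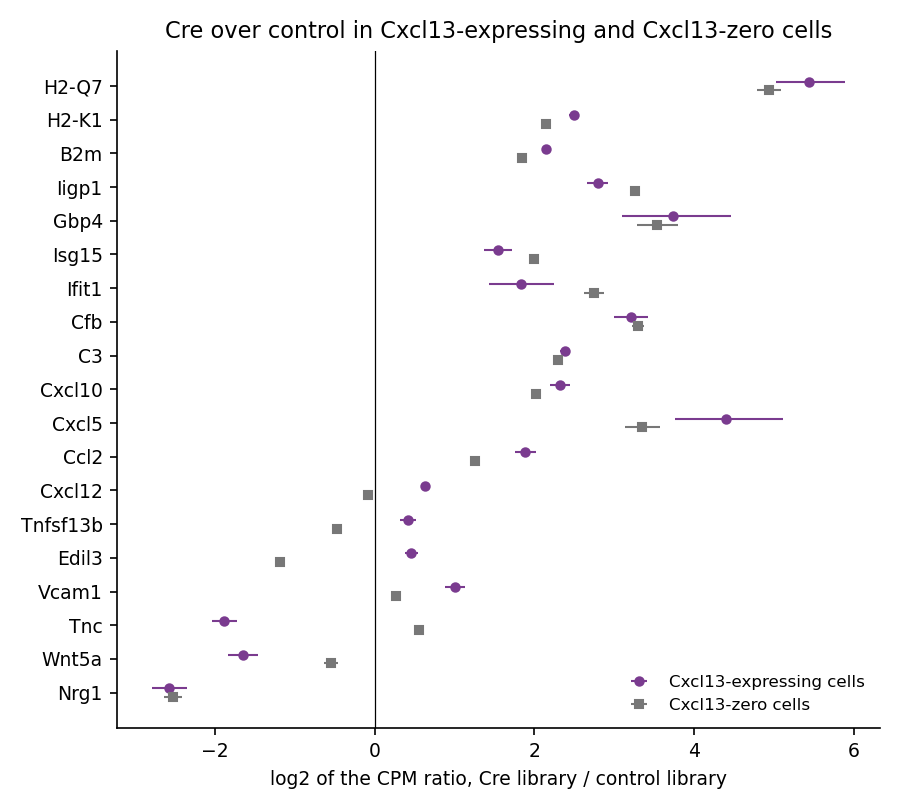
Log2 of the ratio of the Cre over the control level (no CPM added) of selected genes in Cxcl13-expressing and in Cxcl13-zero cells, with exact binomial intervals. The points of H2-K1 stand for ratios of 5.64 and 4.44, those of Tnfsf13b for 1.33 and 0.719, and those of Tnc for 0.271 and 1.47.

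B cell, T cell and pan-leukocyte transcripts were low in the Cxcl13-expressing cells. The summed B cell list was at 2.49 and 1.73 CPM in control cells and Cre expressing cells and at 0.834 and 1.09 CPM in zero cells, T cell genes at 0.415, 0.714, 0.634 and 1.24 CPM, and pan-leukocyte genes at 4.56, 4.49, 1.40 and 1.75 CPM. Smooth muscle genes, by contrast, were lower with Cxcl13, at 130 against 615 CPM in control cells and 94.6 against 185 CPM in the Cre library, with 4 and 3 of 5 genes called lower. Some of these genes passed the minimum through the zero cells, so the counts are a description only. Without cells that held 10 or more UMIs of this list its median log2 ratio went from -2.34 to 0.38 in the control and from -1.27 to -0.10 in the Cre library, and no count of calls over all genes moved by more than 1.5 times. Plasma cell genes were at 277 CPM in the control expressing cells because 1 cell held 1210 of their 1337 UMIs, and at 26.5 CPM without it. The control zero cells were at 14.7 CPM, and at 12.9 CPM without their top cell. In the Cre library these genes were at 29.0 CPM in expressing and 7.63 CPM in zero cells. There the top expressing cell held 4.93% of the UMIs, so the higher level was not confined to 1 cell. The blood endothelium list was at 46.7 and 50.6 CPM in control and Cre expressing cells and at 27.76 and 23.999 CPM in zero cells. Plvap, a protein of fenestrated endothelium, was the 1 measured gene of this list, with a log2 ratio of 0.99 in the control and 1.45, a call, in the Cre library. The endothelial cadherin Cdh5 was at 0 UMIs in the expressing cells of both libraries.

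Outside the collagen limit, more cells carried Cxcl13 in the Cre library. Among kept cells with under 10 collagen UMIs, 50 of 2028 in the control (2.47%, 1.84 to 3.24) and 388 of 2534 in the Cre library (15.3%, 13.9 to 16.8) had at least 3 Cxcl13 UMIs. The median depth of all cells under the collagen limit was 2260.5 UMIs for control and 4429 UMIs for Cre cells. Thinned to 2000 UMIs, which left out 898 control and 525 Cre cells that were shallower, 1.68% (1.02 to 2.61) and 12.9% (11.5 to 14.4) still held at least 3. The cells with at least 3 Cxcl13 UMIs had median depths of 2542.5 and 5607.5 UMIs. They carried Cxcl12 at 2227 and 3283 CPM, Tnfsf13b at 184 and 305 CPM and Dcn at 11363 and 10808 CPM, and the leukocyte gene Ptprc was at 0 in both. They were counted neither as members nor as Cxcl13-zero cells.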

How the data were processed

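The deposited values were raw UMI counts per gene and barcode, made by the authors with Cell Ranger 8.0.1 on GRCm39 per the submitters' processing notes. The members and the 37 gene lists were chosen with earlier results of these data known. Counts were summed over cells, scaled to CPM, and compared as log2(CPM + 1); a gene counted as measured when it averaged 10 CPM or more over the 2 sets compared, and a 2-fold ratio was a call. Of the 33696 features, 26 rows repeat an earlier symbol and were left out. Cell classes came from marker lists, without clustering; glia-like and smooth muscle-like cells had under 10 collagen UMIs and at least 10 glia or 20 smooth muscle UMIs. Scrublet in scanpy 1.11.5 (expected rate 8%) marked 3.56% of kept control and 1.32% of kept Cre cells, and 5.27% and 3.40% of the members, as doublets, which were kept. Levels have exact Poisson, shares Clopper-Pearson and ratios exact binomial intervals (scipy 1.17.1).

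The calculation was run on simulated Poisson counts of the summed sets. In these, 3-fold changes were called for 100 of 100 genes in the control (9085 genes) and 100 of 100 in the Cre (9021). In the Cre over control comparison (9181) they were called for 99 of 100, and 1.5-fold changes for 0 of 100 in each. The simulation held no spread between cells or mice, so it checks the arithmetic only and says nothing of the calls in the data. Genes named over the whole table were the 12 highest and 12 lowest by the weaker library's ratio, with the same sign in both, and the 8 highest and 8 lowest between genotypes, each with at least 50 UMIs, leaving out gene models and mitochondrial, ribosomal, antigen receptor, sex-linked and haemoglobin genes. Of the fibroblast, lymphoid and NF-kB lists any member could be named, and of other lists the 2 highest, 2 lowest and 2 most abundant. Cr2, Fcer2a, Ccl2, Cx3cl1 and H2-K1 fall outside this rule and were chosen after their values were seen. Results for 2 genes are not reported here.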

Additional observations from a re-analysis of the deposited data

Results flagged for a closer look

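Among kept cells of the Cre library with under 10 collagen UMIs, 15.3% held at least 3 Cxcl13 UMIs, against 2.47% in the control library. The median depth of all cells under that limit was 4429 UMIs in the Cre library and 2260.5 in the control, and at 2000 UMIs per cell the shares were 12.9% and 1.68%. These cells lie outside the comparisons above, and the difference between the libraries was not tested.

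Tnc was the gene of the described lists that lay on opposite sides of 0 by at least 1.5-fold in the 2 libraries, with a log2 ratio of expressing over zero cells of 0.68 in control cells and -1.74 in the Cre library. The difference between these 2 ratios was not tested. Within the marker classes the Cre ratio of Tnc was -1.68 (lamina propria), -2.30 (adventitial), -0.63 (subepithelial) and -3.13 (cells of no list), and the control ratio 0.13, -0.33, 0.57 and -0.78. Without the log2 scale, the control ratio was 1.10 (0.963 to 1.24) in lamina propria and 0.789 (0.497 to 1.19) in adventitial cells. Both intervals include 1, so no direction is given for these classes. In cells of no list it was 0.577 (0.429 to 0.760), lower with Cxcl13 as in the Cre library. The opposite direction was seen in subepithelial cells, at 1.48 (1.36 to 1.62).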

How the results depend on the processing

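No paired analysis was possible because each genotype has 1 library. With 1 library per genotype nothing could be left out in turn. Counts of calls moved by over 1.5 times only with the settings named here. With 10 CPM added, calls were 22 higher and 64 lower in the control, 86 higher in the Cre library, 60 lower between genotypes, and 9 and 37 in both libraries. A minimum of 50 CPM gave 16, 39, 68 and 80, 71 and 42 between genotypes, and 8 and 23 in both. With no minimum the counts were 218, 311, 306 and 457, 450 and 442, and 44 and 169. With at least 10 Cxcl13 UMIs 70 genes were called higher in the control and 34 in both. Weighting to the marker class gave 29 and 96 in the Cre library, 74 lower between genotypes, and 11 and 32 in both, of which 10 and 25 were among the genes called without it. The share of Cxcl13-expressing cells was 8.07% and 19.3% at 2000 UMIs, 1.92% and 8.78% at 10 Cxcl13 UMIs, and 5.77% in the control without the collagen minimum. Scaling, weighting of cells, doublets, depth, the collagen minimum, smooth muscle cells, cells with transcripts of other types and, between genotypes, the Cxcl13 level of the cells moved no count of calls by over 1.5 times; the last 4 of these were chosen after seeing the data. The histone gene H3c2, read mostly from 1 cell, turned to -0.40 (log2, control) with at least 10 Cxcl13 UMIs and to -0.12 without cells with transcripts of other types, from 5.05.

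Genes with few UMIs, and the cells at 25 or more Cxcl13 UMIs in the control, limit the depth of these values.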
